A study of Drosophila melanogaster with 3 samples.

Results

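The dpr, DIP, beat and side genes of Drosophila melanogaster encode 4 families of cell-surface recognition proteins with immunoglobulin domains. Members were taken from the annotation by symbol alone: protein-coding genes named dpr followed by a number, DIP- followed by a Greek letter, beat-, or side. This gave 54 of 13945 protein-coding genes, namely 21 dpr, 11 DIP, 14 beat and 8 side genes. Their binding by Ewg (erect wing) was read from chromatin immunoprecipitation followed by sequencing (ChIP-seq).

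Dpr proteins bind DIP proteins of the opposing cell, each pair with its own preference, and these contacts help neurons to choose synaptic partners and to survive. Side proteins on muscles and other target cells are recognised by Beat proteins on growing axons, as in the steering of motor axons by Side and Beat-Ia. By convention dpr and side are called the ligand families here and DIP and beat the receptor families. Ewg is a transcription factor of neurons and muscle and the fly homologue of vertebrate NRF-1, which binds a GC-rich palindrome.

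The assay used mixed-sex whole embryos collected from 0 to 14 hours of development, from a transgenic line that stably expresses ewg with eGFP fused to its C-terminal end. DNA sheared by sonication to 200 to 800 bp was recovered with an antibody against GFP. There were 3 biological replicates of this 1 group, all from the same line, and no second genotype or age is compared. The lists give positions of binding and hold no expression values, so the make-up of the embryos could not be checked against marker genes. In whole embryos, binding in fewer cells and weaker binding per cell cannot be told apart.

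The authors' optimal set held 6793 peaks on the dm6 build, with pooled signal down to 141.8 and a median of 269.9. A gene was called bound when the summit of an optimal peak, its highest point, lay within 500 bp of any of its transcript starts. The longer permissive lists, 30000 regions from the pooled replicates and 29999 to 30000 from each replicate, include background as deposited. To compare replicates, relative signal was computed: the deposited value over the median, in the same replicate, of 5852 peaks found in all 3 lists. These medians were 81.4, 124 and 84.1 in replicates 1, 2 and 3. How deeply the libraries were sequenced is unknown.

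The sequences under the promoter summits are shown first, because they hold near matches to the NRF-1 palindrome in members of 3 of the families. They are from the dm6 reference assembly, 5′ to 3′ on the strand of the gene. Capitals mark the 10-base palindrome with 1 difference, TGCGCA, or GAGAGA on either strand, and these overlap in dpr6, dpr8 and dpr14. The dpr20 and beat-Ia windows hold no near palindrome and are shown for contrast.
dpr6, chr3L:9974451-9974584, plus strand: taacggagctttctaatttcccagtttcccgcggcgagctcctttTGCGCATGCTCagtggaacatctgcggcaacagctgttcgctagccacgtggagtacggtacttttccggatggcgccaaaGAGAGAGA
dpr7, chr4:253315-253435, minus strand: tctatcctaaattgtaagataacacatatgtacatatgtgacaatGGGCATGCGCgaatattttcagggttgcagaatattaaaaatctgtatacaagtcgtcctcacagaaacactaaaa
dpr8, chrX:14321967-14322102, plus strand: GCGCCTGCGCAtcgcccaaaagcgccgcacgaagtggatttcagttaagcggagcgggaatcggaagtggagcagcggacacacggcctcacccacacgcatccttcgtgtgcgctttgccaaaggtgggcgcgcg
dpr14, chrX:7908528-7908681, minus strand: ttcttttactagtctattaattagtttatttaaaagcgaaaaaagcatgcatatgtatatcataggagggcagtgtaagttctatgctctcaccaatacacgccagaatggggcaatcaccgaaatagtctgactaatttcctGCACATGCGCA
dpr20, chr3L:857219-857337, minus strand: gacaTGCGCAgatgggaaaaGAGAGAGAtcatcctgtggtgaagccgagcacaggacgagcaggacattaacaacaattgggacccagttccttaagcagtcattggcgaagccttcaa
side-VII, chr3R:9739966-9740086, minus strand: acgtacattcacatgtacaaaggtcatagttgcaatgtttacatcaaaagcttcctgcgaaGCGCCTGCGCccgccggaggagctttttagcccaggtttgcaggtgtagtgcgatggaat
DIP-alpha, chrX:3530882-3531002, minus strand: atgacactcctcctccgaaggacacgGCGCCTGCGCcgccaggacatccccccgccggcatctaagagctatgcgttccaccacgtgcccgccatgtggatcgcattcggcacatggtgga
beat-Ia, chr2L:16049765-16049885, plus strand: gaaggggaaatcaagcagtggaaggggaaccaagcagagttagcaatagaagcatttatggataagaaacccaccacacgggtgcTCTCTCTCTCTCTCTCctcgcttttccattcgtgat

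Positions in the palindrome are counted from 1 at its 5′ end as read on the strand of the gene, with the palindrome's base given first. The near match differed by G9T in dpr6, C2G in dpr7, A5C in dpr8, G3A in dpr14, and A5C in both side-VII and DIP-alpha. Matches were counted to the palindrome, whose middle bases are AT, and to its forms with AC or GT there. Of the 23 optimal summits at member promoters, 7 (30.4%) had a match with at most 1 difference within 100 bp. They were those of dpr6, dpr7, dpr8, dpr12, the upstream dpr14 summit, DIP-alpha and side-VII, and all 7 differed from the AT form by 1 base. The same share was 9.92% of 3277 promoter summits over all genes and 1.86% of all 13945 gene promoters, read 100 bp to either side of a point 100 bp before the outermost start. None of the 23 had an exact match to any of these forms, against 1.31% of all promoter summits. The form with A5C, singled out after its counts were seen and sought on both strands, lay at 4 of the 23 (17.4%): dpr8, dpr12, DIP-alpha and side-VII. It lay at 71 of the 3277 promoter summits (2.17%). A match describes the letters and does not show which bases Ewg contacted.

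Shorter motifs were also more frequent at these summits than over all promoter summits, as counts without a test. TGCGCA lay at 8 of 23 member promoter summits (34.8%) and 17.0% of all promoter summits. It was found at both dpr14 summits, at dpr6, dpr8, dpr11, dpr20 and beat-IIa, and at the weaker dpr19 summit. GAGAGA lay at 6 of 23 (26.1%) and at 15.2% of all promoter summits. Promoters as such were read in the window set by the outermost start, so their shares are not directly comparable with those at summits. In that window GAGAGA was in 16 of all 54 member promoters (29.6%) and 10 of the 34 unbound (29.4%), against 9.29% of all gene promoters. TGCGCA was in 6 of the 54 (11.1%) and 3 of the 34 (8.82%), against 4.96% of all gene promoters. A near palindrome was in 6 of the 54 (11.1%) and 1 of the 34 (2.94%). The shares moved with the window: within 50 bp TGCGCA lay at 21.7% of member summits, against 12.0% of all promoter summits, and within 250 bp GAGAGA lay at 43.5%, against 30.7%.

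Ewg was bound at the promoters of 20 of the 54 genes (37.0%), and the dpr family held most of them. Over all protein-coding genes 26.4% were bound. Of the dpr genes 13 of 21 were bound (61.9%), against 2 of 11 DIP genes (18.2%), 3 of 14 beat genes (21.4%) and 2 of 8 side genes (25%). The ligand families together had 15 of 29 bound (51.7%) and the receptor families 5 of 25 (20%). Members are long genes, with a median span of 36.2 kb against 2.17 kb over all genes, and 50.8% of the 522 genes of at least 36.2 kb were bound. Of the 27 members that long, 8 were bound (29.6%), so the share of long members lay under that of long genes in general. Of the 27 shorter members 12 were bound (44.4%).

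**Figure D1:**
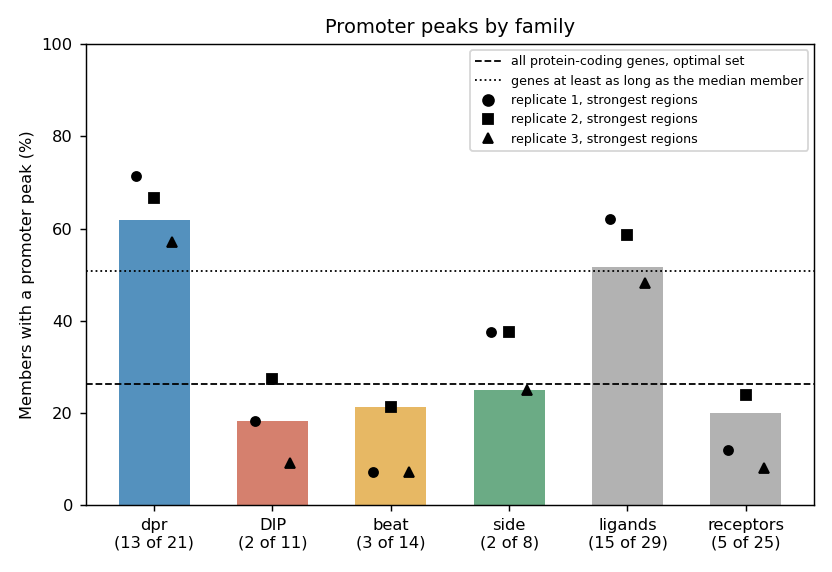
Percent of genes with a promoter peak (vertical axis) in each family and in the ligand and receptor families together. Bars are the optimal set, symbols the 6793 strongest regions of each replicate, and lines the share of all protein-coding genes (26.4%) and of genes at least as long as the median member (50.8%); the dpr symbols lie between 57.1% and 71.4%, above those of the other 3 families.

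Within classes of gene length the dpr share lay above that of the other members in every class except 20 to 50 kb. The dpr genes were bound at 3 of 3 under 5 kb and 3 of 4 from 5 to 10 kb, where 20.5% and 37.4% of all genes were. The other members in these classes were few, with 0 of 1 bound under 5 kb and 1 of 2 from 5 to 10 kb. From 10 to 20 kb, 2 of 3 dpr genes and 1 of 5 others were bound, beside 46.4% of all genes. From 20 to 50 kb, 1 of 4 dpr genes and 4 of 15 other members were bound, beside 52.5% of all genes. At 50 kb or more the counts were 4 of 7 dpr genes and 1 of 10 others, beside 48.2% of all genes. The counts per class are small and were not tested.

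The contrast between receptor and ligand families was repeated in each replicate with its 6793 strongest regions, which bound 25.9%, 27.3% and 24.5% of all genes in replicates 1, 2 and 3. Of the ligand genes 62.1%, 58.6% and 48.3% were bound, a mean of 56.3% ± 7.18 (SD, n = 3). Of the receptor genes 12.0%, 24.0% and 8.0% were bound, a mean of 14.7% ± 8.33 (SD, n = 3). The ranges did not overlap. Receptors minus ligands was -50.1, -34.6 and -40.3 percentage points, a mean of -41.7 ± 7.82 (SD, n = 3). The two-sided exact sign-flip permutation test gave p = 0.25, the smallest that 3 replicates allow, so it could not pass 0.05.

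Within the DIP and dpr partners the difference was -46.9 ± 7.0 points (SD, n = 3), from 65.1% ± 7.27 of dpr and 18.2% ± 9.09 of DIP genes. Within the beat and side partners it was -21.4 ± 7.78 points (SD, n = 3), from 33.3% ± 7.22 of side and 11.9% ± 8.25 of beat genes. Both exact permutation p-values were 0.25, two-sided. The 3 replicates share a line and a control alignment, so this spread is that between biological replicates of this line.

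How bound receptors and ligands compared in strength depended on how summits were matched between lists. Median relative signal of bound receptors was 0.634, 1.23 and 1.77 in replicates 1, 2 and 3, over 5, 5 and 3 genes, because the weak DIP-delta and beat-VII had no match within 100 bp in replicate 3. That of the 15 bound ligands was 1.26, 2.69 and 1.15. The mean difference, receptors minus ligands, was -0.488 ± 1.04 (SD, n = 3; two-sided exact permutation p = 0.5). It was positive in replicate 3 only, the replicate without those genes; regions within 500 bp of their starts had 0.467 and 0.344 there. Matching within 200 bp gave -0.948 ± 0.473 (SD, n = 3; two-sided exact permutation p = 0.25, the smallest possible), and matching within 50 bp gave 0.0618 ± 1.23 (SD, n = 3). No call on strength is made from these values.

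**Figure D2:**
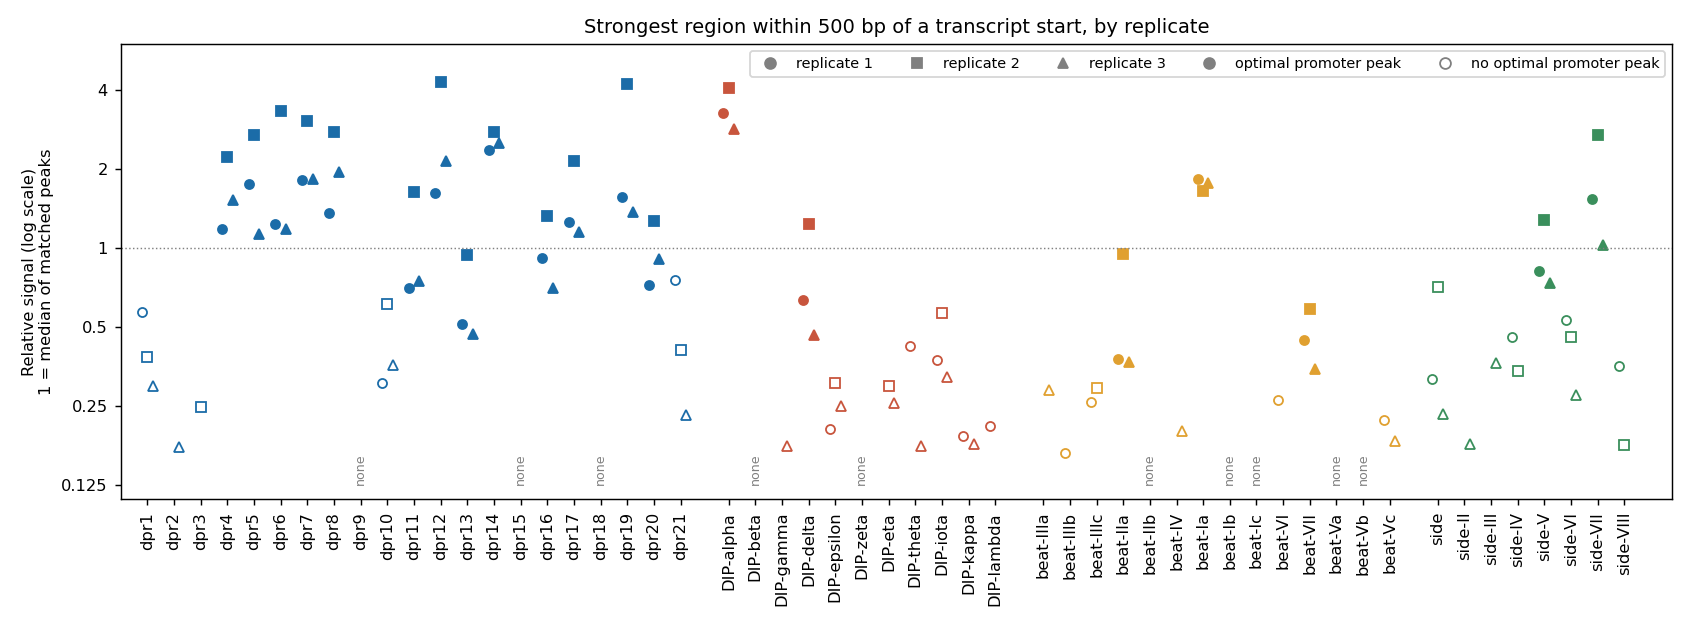
Relative signal (vertical axis, log scale, 1 is the median of matched peaks) of the strongest region of each replicate's permissive list within 500 bp of a start, for all 54 genes. Filled symbols are genes with an optimal promoter peak and open symbols the others; "none" means no region in any replicate. All filled dpr genes except dpr13 (0.944) lie above 1 in replicate 2, and DIP-alpha lies between 2.85 and 4.09.

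By pooled signal the strongest dpr promoter was that of dpr12, the ligand of DIP-delta, with 847 and rank 586 of 6793. Its relative signal was 1.62, 4.29 and 2.14, a mean of 2.68 ± 1.42 (SD, n = 3), and the summit lay 64 bp before its start on 2R. For dpr14 it was 2.36, 2.78 and 2.52 (2.55 ± 0.213), the most even of the strong dpr promoters, but this summit was nearer to the start of the neighbouring gene spidey, at 310 bp. In replicates 1 and 3 dpr14 was above dpr12, and without replicate 2 the means were 2.44 for dpr14 and 1.88 for dpr12. A separate dpr14 summit, 8 bp from an internal start, had 1.41, 1.29 and 1.56 (1.42 ± 0.137).

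The start region of dpr19 held 2 summits. The stronger, 20 bp from its internal start, had relative signal 1.56, 4.24 and 1.37 (2.39 ± 1.61, n = 3). The weaker, with 0.808, 0.444 and 0.897, was nearer to the start of CG33303, at 77 bp. For dpr7, on chromosome 4, the values were 1.82, 3.06 and 1.84 (2.24 ± 0.707), and for dpr8, on X, 1.36, 2.77 and 1.95 (2.03 ± 0.710). In all of these except the even dpr14 pair and the weaker dpr19 summit, replicate 2 stood clearly above the other 2.

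The next group was dpr6, a ligand of DIP-alpha, with 1.23, 3.34 and 1.18 (1.91 ± 1.24), then dpr5, with 1.76, 2.69 and 1.13 (1.86 ± 0.785). The dpr4 promoter had 2 summits, of which the stronger had 1.18, 2.23 and 1.53 (1.65 ± 0.534). The dpr17 promoter had 1.26, 2.15 and 1.15 (1.52 ± 0.549). These ranges overlap with each other and with those of dpr7 and dpr8, so no order is given among them. The weakest bound dpr promoters were dpr11 (1.00 ± 0.549), dpr16 (0.978 ± 0.311), dpr20 (0.968 ± 0.277) and dpr13 (0.642 ± 0.262), all relative signal with SD and n = 3. Among them dpr11, the ligand of DIP-gamma, had 0.624, 1.63 and 0.747.

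The 8 dpr genes without an optimal summit at a start had none elsewhere either. Of these, 6 had a pooled permissive region at the promoter. With the bound genes this made 19 of 21 dpr genes (90.5%), against 46.8% of all genes, bound or not. The pooled signals at the 6 unbound genes were 135 at dpr21, 133 at dpr10, 125 at dpr1, 55.6 at dpr2, 45.0 at dpr9 and 42.6 at dpr3. The first of these lay just under the lowest optimal signal of 141.8, as beat-VII, at 145, lay just above it. No permissive promoter region was listed for dpr15 and dpr18.

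The side family had optimal peaks at the starts of side-VII and side-V. For side-VII the relative signal was 1.54, 2.70 and 1.03 (1.76 ± 0.856, SD, n = 3), and its summit lay 47 bp before the start. For side-V it was 0.815, 1.28 and 0.733 (0.942 ± 0.294). The founding gene side, whose product on muscle attracts motor axons, had pooled permissive signal of 109 at its start and relative signal of 0.317, 0.708 and 0.233, all under the median of matched peaks. The other side genes had pooled permissive signals of 116 (side-VI), 82.5 (side-IV), 63.2 (side-VIII), 47.4 (side-III) and 35.3 (side-II). Thus all 8 had a permissive region at a start and 2 an optimal peak.

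Among receptors, DIP-alpha had the strongest promoter summit of all 54 genes, with pooled signal 1018 and rank 406. DIP-alpha spans 3507245 to 3571649 on the minus strand of X. The summit, at 3530942, lay 277 bp upstream of an internal transcript start and 40.7 kb from the outermost start. Its relative signal was 3.28, 4.09 and 2.85, a mean of 3.41 ± 0.633 (SD, n = 3). This range overlapped those of dpr6, dpr7, dpr12 and dpr19 and of no other bound member. With the outermost start alone DIP-alpha was not bound. DIP-delta was weak, with 0.634 and 1.23 in replicates 1 and 2 and no match in replicate 3. Without replicate 1 or 2 in turn, keeping peaks among the strongest of both others, neither DIP-delta nor dpr13 stayed bound.

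The other DIP genes had no optimal promoter peak. Pooled permissive signals were 117 at DIP-iota, 90.3 at DIP-theta, 67.6 at DIP-eta, 50.9 at DIP-epsilon, 35.4 at DIP-kappa and 32.2 at DIP-gamma. No pooled permissive region lay at a start of DIP-beta, DIP-zeta or DIP-lambda. In all, 16 of 25 receptor genes (64.0%) and 27 of 29 ligand genes (93.1%) had a permissive region.

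In the beat family the promoter of beat-Ia, the receptor of Side on motor axons, was the strongest and the most even over replicates. It lies on 2L from 16049965 to 16081684, and relative signal was 1.83, 1.65 and 1.77 (1.75 ± 0.0954, SD, n = 3). The summit was 140 bp upstream of the start. The other 2 bound genes were weak: beat-IIa had 0.196, 0.949 and 0.193 (0.446 ± 0.436), resting on replicate 2, and beat-VII had 0.444 and 0.583 with no match in replicate 3. Without replicate 1, 2 or 3 in turn, 1 beat gene stayed bound, beat-Ia. Permissive pooled signals were 66.8 at beat-IIIa, 56.0 at beat-IIIc, 43.4 at beat-Vc, 42.6 at beat-IV and 34.1 at beat-Va. None was listed at beat-IIIb, beat-IIb, beat-Ib, beat-Ic, beat-VI or beat-Vb.

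Known partners were not bound as pairs throughout. DIP-alpha and dpr6 were both bound, but dpr10, its other ligand here, was not within 500 bp, with 0.305, 0.609 and 0.359; it was with a window of 1000 bp. DIP-delta and dpr12 were both bound, the receptor weakly and the ligand strongly. For DIP-gamma and dpr11 only the ligand was, and for beat-Ia and side only the receptor was at a start. Of beat-IIa and beat-IIb, both receptors of Side-IV, the first was bound weakly and the second was not listed, and side-IV had its optimal peaks in an intron.

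Neighbouring paralogs also differed. The convergent genes dpr6 and dpr10 on 3L lie 8.09 kb apart with no other coding gene between them, and within 500 bp dpr6 alone was bound, while within 1000 bp both were. The dpr5 and dpr4 genes, with 27.5 kb between their ends on 3R, were both bound. The dpr17 promoter was bound and that of dpr15 had no permissive region, the facing ends of these genes lying 27.4 kb apart. In the beat-I group on 2L, beat-Ia was bound, beat-Ic, whose end lies 8.26 kb from it, was not listed, and beat-Ib had peaks far from its start.

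Away from their own starts, 10 of 54 members (18.5%) had an optimal summit elsewhere in the gene span, against 9.69% of all genes and 60.9% of the 522 long genes. Of the 27 long members 8 (29.6%) had one. Summits at starts of other genes within a span count here, and a summit in overlapping genes counts for each. Without summits at starts of other coding genes the members still numbered 10, and this was not computed for the other genes. The dpr family, first at promoters, was last here, and the other families kept their order: 4 of 8 side genes (50%), 3 of 14 beat (21.4%), 2 of 11 DIP (18.2%) and 1 of 21 dpr. There were 18 such summits, all in introns, at 0.714 per 100 kb of member span, against 2.76 per 100 kb over all genes and 2.62 over long genes. By family the density was 1.92 in side, 1.33 in beat, 0.290 in DIP and 0.112 in dpr. The beat value rests largely on 1 gene, as 5 of the 7 beat summits lay in beat-Ib. Permissive regions had a smaller gap, at 10.2 per 100 kb in members and 18.4 in long genes.

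**Figure D3:**
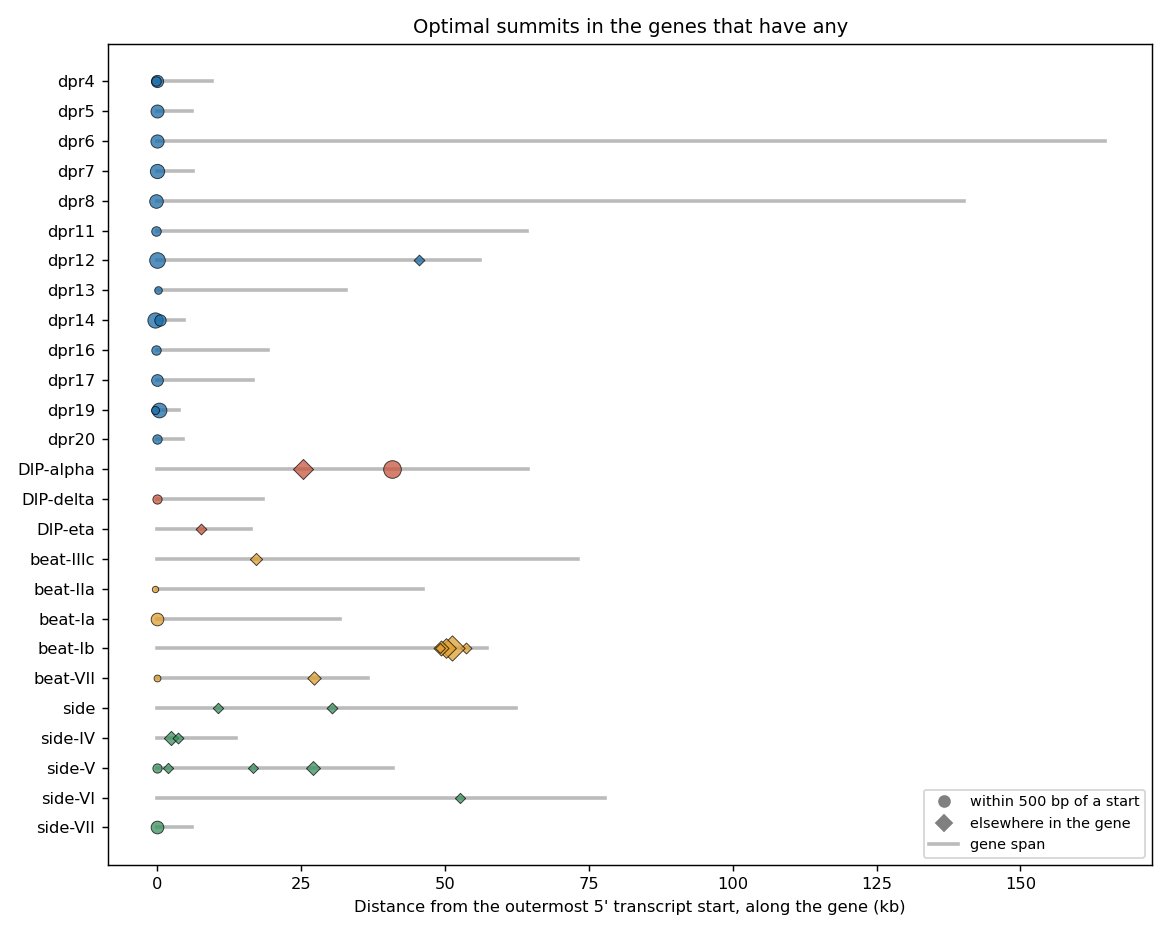
Optimal summits along the 26 genes that have any, by distance in kb from the outermost 5′ start (horizontal axis), with the gene span as a grey line and larger symbols for stronger summits. Circles are summits within 500 bp of a start and diamonds those elsewhere; the dpr circles sit at the start, the DIP-alpha circle at an internal start 40.7 kb along, and the beat-Ib diamonds cluster near 50.2 kb.

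The strongest of these intronic summits lay in beat-Ib, where 5 summits fell within 4584 bp, 49.1 to 53.7 kb from its only start. The strongest had pooled signal 1000 and rank 421, and relative signal 3.37, 3.14 and 4.01 (3.51 ± 0.451, SD, n = 3), which differed from the DIP-alpha promoter by less than the replicate spread. It lay within 500 bp of the start of the non-coding gene lncRNA:CR44867. The next, with 2.14, 1.99 and 2.26 (2.13 ± 0.135), lay within 500 bp of the start of lncRNA:CR44868. The third had 1.55, 0.591 and 1.59, and the other 2 had pooled signals of 156 and 152.

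DIP-alpha held the strongest intronic summit outside beat-Ib, 25.3 kb from the outermost start, with 2.06, 1.79 and 2.80 (2.22 ± 0.523, SD, n = 3). It lay within 500 bp of the start of lncRNA:CR34335. So the 3 strongest summits counted as intronic each lay near the start of a non-coding gene, and none of the other 15 did. How often other optimal summits away from promoters lie near such a start was not computed, so the pattern may not be particular to these genes. Whether the non-coding transcripts or the host genes are concerned was not tested. The sequences of the strongest summit of beat-Ib and that of DIP-alpha are given for comparison with the promoters, on the strand of the host gene, and hold none of the motifs.
beat-Ib intron, chr2L:15911232-15911352, minus strand: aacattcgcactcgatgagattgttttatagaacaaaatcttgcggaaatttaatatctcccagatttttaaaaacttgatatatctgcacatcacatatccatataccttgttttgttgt
DIP-alpha intron, chrX:3546260-3546380, minus strand: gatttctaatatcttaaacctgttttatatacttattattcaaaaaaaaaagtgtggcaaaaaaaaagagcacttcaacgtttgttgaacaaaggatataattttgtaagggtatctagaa

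In the side family the intronic summits were weaker. For side-IV, the partner of Beat-IIa and Beat-IIb, the summit at 2.39 kb had relative signal 1.26, 0.941 and 1.15 (1.12 ± 0.164, n = 3), and a second at 3.57 kb had pooled signal 190. For side-V the summit at 27.1 kb had 1.06, 0.948 and 1.22 (1.08 ± 0.139), with 2 weaker ones of pooled signal 162 and 159. The side gene itself had 2 summits of pooled signal 179 and 181, at 30.3 and 10.5 kb, and side-VI 1 of 153. Single summits lay in beat-VII (0.992 ± 0.145), beat-IIIc (0.815 ± 0.101), dpr12 (0.636 ± 0.127), all n = 3, and DIP-eta. The DIP-eta and side-VI summits had no match in replicate 2.

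These 18 summits held few of the motifs of the promoters. None had a match to any form of the palindrome with at most 1 difference, against 11.0% of 3516 optimal summits away from promoters. TGCGCA lay at 1 of 18 (5.56%, against 17.4%) and GAGAGA at 1 of 18 (5.56%, against 18.0%).

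Member promoters were placed like other promoters. Of the 23 summits 21 (91.3%) lay upstream of the nearest start, at a median of -90.0 bp, and 84.0% of 4404 pairs of promoter summit and gene over all genes did, at a median of -111 bp. Their pooled signal had a median of 462, against 301 over all promoter summits. Intronic member summits had a median of 186, against 245 over optimal summits away from promoters.

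Promoter and intronic summits of these genes differed in how replicate 2 compared with the others. Relative signal in replicate 2 over the mean of replicates 1 and 3 had a median of 1.67 over the 21 member promoter summits found in all 3, from 0.521 to 4.88, and was above 1 at 18. Over all promoter summits the median was 1.05, with 52.7% above 1. Over the 14 intronic member summits found in all 3 the median was 0.792, from 0.377 to 1.02, with 2 above 1 (14.3%). Over other optimal summits the median was 0.918, with 43.4% above 1. The 14 include neighbouring summits of beat-Ib, which are not separate loci. Replicate 2 therefore carries much of the SD of the promoter means given here, and what sets it apart was not tested.

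**Figure D4:**
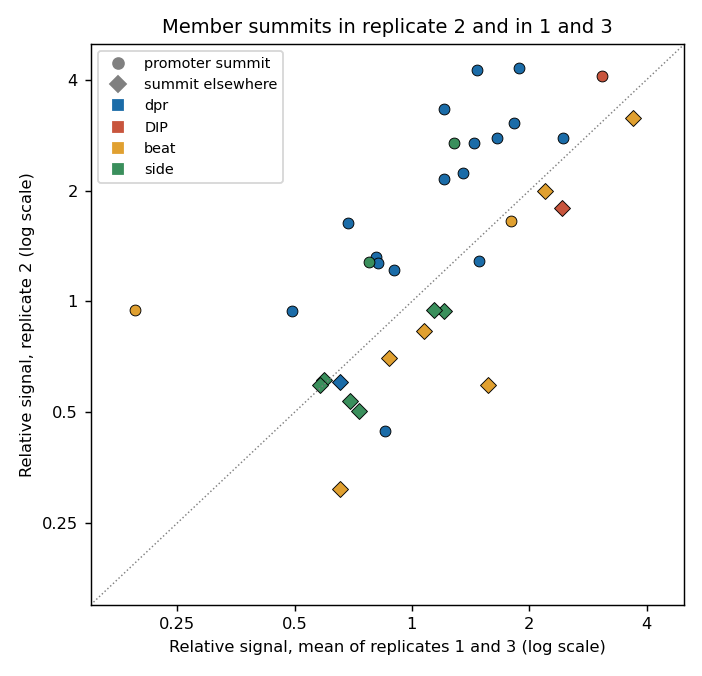
Relative signal in replicate 2 (vertical axis) against the mean of replicates 1 and 3 (horizontal axis), both on log scales, for member summits found in all 3 replicates, coloured by family; the dotted line is equality. Promoter summits (circles) lie above the line at 18 of 21, and summits elsewhere (diamonds) at 2 of 14.

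Other surface recognition genes of the nervous system gave a wider view. Of 42 listed by symbol, among them Dscam, robo and Toll genes, 23 were bound at a promoter (54.8%) and 18 had a summit elsewhere (42.9%), with a median span of 39.0 kb. Over all genes the shares were 26.4% and 9.69%, and over the 522 genes of at least 36.2 kb 50.8% and 60.9%. Median relative signal of the 23 bound genes of this list was 1.28, against 1.70 over the bound members and 1.86 over bound dpr genes. The highest were Toll-7 (4.44), Ten-m (3.45) and Dscam2 (2.80).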

How the data were processed

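The unit used was the signal of each peak in the deposited narrowPeak lists on dm6, which the authors derived from alignments of the replicates and a shared control alignment, per the file records; the aligner and caller, with their versions, were not given in the sources used here. Optimal peaks equal the 6793 strongest pooled regions. Signal scale differs between lists, so each replicate was divided by its median over 5852 shared peaks. Read depth is unknown, so no depth-based interval is given.

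Genes and starts came from Ensembl release 115 and sequence from the dm6 reference assembly. An optimal summit was matched to a replicate region within 100 bp. Motifs were sought on both strands within 100 bp. The NRF-1 palindrome was sought with at most 1 difference from it or from its forms with AC or GT in place of the middle AT. Spans run from first to last annotated base. The 522 long genes have at least the median member span of 36.2 kb. Families were compared within replicates by a two-sided exact sign-flip permutation test. Peaks and genes are not replicates, and counts over them carry no test.

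Members, lists and tests were chosen with earlier results of these data known. Values per replicate are given for up to 5 members of each family with the strongest promoter summits, up to 3 with most summits elsewhere, and the partner pairs; other bound members were added and unbound members are named with their pooled signal. The dm3 lists were not used. In replicate 1, 1 region off the main chromosomes was left out. Alternatives changed the promoter window, start, threshold, summit match, motif window and replicates. Calculations used scipy 1.17.1, pandas 2.3.3, numpy 2.4.6, matplotlib 3.10.9 and Python 3.11.15, and the counting was tested on simulated data.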

Additional observations from a re-analysis of the deposited data

How the results depend on the processing

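The receptor-minus-ligand difference in the share bound kept its direction under every alternative run for it, from -28.8 to -47.0 points apart from the within-partner contrasts given above. None of these alternatives split the genes by length. The difference in signal among bound genes depended on the matching and families: it was 0.0618 with matches within 50 bp, -0.948 within 200 bp, 0.782 for DIP against dpr and -0.559 for beat against side, and leaving out 1 replicate gave -1.04 to -0.00560. Bound DIP genes numbered 1 with a 250 bp window, with the outermost start only and among the 3396 strongest optimal peaks, and 1 to 2 when 1 replicate was left out. Bound beat genes numbered 1 among those 3396 peaks and 1 without any 1 replicate. The genes lost with the 3396 strongest peaks were DIP-delta, beat-IIa, beat-VII and dpr13, and a 1000 bp window added dpr10. With all permissive regions 43 members counted as bound, with 8 DIP, 8 beat and 8 side genes. Members with a summit elsewhere numbered 5 with the 3396 strongest peaks, with 0 dpr, 1 DIP and 2 side genes, and 1 to 2 DIP genes when 1 replicate was left out. Density elsewhere was 0.278 per 100 kb with the 3396 strongest peaks, against 1.13 in long genes. It was 0.476 to 0.555 when 1 replicate was left out, against 1.72 to 1.96 in long genes, and 0.892 without the long genes DIP-lambda and dpr21, which was tried after seeing the data. The near palindrome lay at 21.7% of member promoter summits within 50 bp and 43.5% within 250 bp, against 7.45% and 14.7% of all promoter summits. With 1 group there are no groups to pair, and the families were compared within each replicate. The unknown read depth limits what can be said of unlisted promoters, which are not shown to be free of Ewg.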
